A study of Mus musculus with 17 samples.

Results

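The genotype effect described here is the difference between Clic4 knockout (KO) and wild-type (WT) mouse lung that is shared by day 0 and day 14. It was taken from 1 additive model over all 17 libraries of the series, 7 KO and 10 WT, with genotype and day as terms and no interaction between them. Of 19557 genes tested, 36 carried a called genotype effect in this model, and 19 of those were called at neither day alone; these 19 genes, 12 higher and 7 lower in KO, are the main subject. Whole lungs were profiled by RNA sequencing in a series on the host's part in metastasis of mouse mammary tumours. The groups were KO lung at day 0 (2 libraries, mice 6 weeks old), WT lung at day 0 (4 libraries, 6 weeks), KO lung at day 14 (5 libraries, 8 weeks) and WT lung at day 14 (6 libraries, 8 weeks). All groups share the strain label FVB/6DT1; 6DT1 names a mammary tumour line of the mouse. The sample titles name the day 0 libraries Control and the day 14 libraries 14_Days. The labels describe neither the KO allele nor any treatment given between the days. Group sizes follow the sample labels, since the series' own design text counts the animals differently. Day and age changed together, but each KO library was compared with WT libraries of its own day. Each title carries its own B number, but the labels do not tie it to an animal. The p-values therefore rest on a spread between libraries that could be partly technical. In the titles every WT library has a lower S number than every KO library. The labels do not explain this number, and anything that follows its order cannot be told apart from genotype.

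CLIC4 is a small protein of the chloride intracellular channel family that exists in a soluble and a membrane-bound form. It moves between cytoplasm, nucleus and membranes and is known from work on TGF-beta signalling, the actin cytoskeleton and the formation of endothelial tubes. In whole lung it is abundant in endothelial, epithelial and stromal cells. SELENON, the product of a neighbouring gene, is a selenoprotein of the endoplasmic reticulum with a role in calcium and redox balance, best known in muscle.

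Clic4 marked the genotype in every library. In counts per 1000000 counted after TMM scaling (CPM), it read 324 and 328 in KO at day 0, against 925, 943, 953 and 952 in WT at day 0. At day 14 it read 333, 399, 302, 337 and 308 CPM in KO, and 927, 963 and 1281 (lowest, median and highest of 6) in WT. No KO library came near a WT library, and KO kept 33.0% of the WT level (log2 fold change -1.60, SE 0.0734, adjusted p = 1.17e-10; edgeR quasi-likelihood test with Benjamini-Hochberg adjustment over all genes, as for every adjusted p below unless another tool is named). Counts are gene totals and do not show which exons gave the reads that remained. Selenon, 0.662 Mb away, was higher in KO: 111 and 95.03 CPM in KO at day 0 against 66.7 to 68.2 CPM in WT, and 100.2 to 109.8 CPM in KO at day 14 against 63.7 to 70.7 CPM in WT (log2 +0.63, SE 0.0359, adjusted p = 2.63e-09). An exact two-sided permutation of the genotype labels within days gave p = 0.000144 for Clic4 and for Selenon, the smallest value that 6930 arrangements allow. That value follows from the lack of overlap within each day, so it restates the separation and is no separate evidence. Other called genes, Sulf2 and Tspan1 among them, reached the same floor. The other CLIC genes did not pass: Clic6 stood at +0.20 (adjusted p = 0.103), and Clic1, Clic3 and Clic5 at +0.01, -0.01 and -0.07 (adjusted p = 0.660 or higher).

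Libraries held 20607811 to 35743830 counts, and 17 genes of alveolar type 2 cells, which make the surfactant of the lung, summed to 22140 to 32830 CPM in each. At day 0 this sum was 28130 to 32830 CPM in KO against 22140 to 27970 CPM in WT. At day 14 it was 22410 to 28520 CPM in KO against 23090 to 26980 CPM in WT. Of the 17 genes, 15 stood above 0 and 2 below (median log2 +0.13), and 0 were called. The common biological coefficient of variation was 0.152. Over all genes the median log2 fold change of the genotype term was -0.000687, and 9720 of the 19557 genes stood above 0.

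A genotype effect was called (adjusted p under 0.05) for 36 genes, which is 0.184% of those tested; 22 were higher in KO (0.112%) and 14 lower (0.0716%). The same libraries gave 5 called genes at day 0 (0.0256%) and 21 at day 14 (0.107%). Both counts came from contrasts in a fit that takes its spread from the libraries of both days. Of the 36 genes, 4 were also called at each day alone (Clic4, Selenon, Pnrc2 and the pseudogene Gm10036), 13 also at day 14 alone and 0 at day 0 alone. The remaining 19 (0.0972% of genes tested) were resolved at neither day: their adjusted p ran between 0.350 and 0.746 at day 0 and between 0.0529 and 0.287 at day 14, but between 0.00930 and 0.0468 with both days together. Their standard errors fell with the added libraries, to a median of 0.102 on the log2 scale with both days, against 0.179 at day 0 and 0.127 at day 14. The median over all genes tested fell likewise, to 0.0916 with both days, against 0.159 at day 0 and 0.112 at day 14. All 19 had the same sign at both days. For these genes a test of whether the effect differs by day gave unadjusted p between 0.126 and 0.985 and an adjusted p of at least 0.988. A model with 1 effect for both days chose these genes and favours like values at the days. Both results are therefore descriptions and no separate evidence of a shared effect. No gene of all 19557 was called for that difference by edgeR (890 had an unadjusted p under 0.05). DESeq2 called 9 genes for it, limma-voom 0, edgeR with a minimum mean of 1 CPM 1, and limma on the FPKM values 3 to 12. A count of 0 does not show that the effects are equal.

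**Figure D1:**
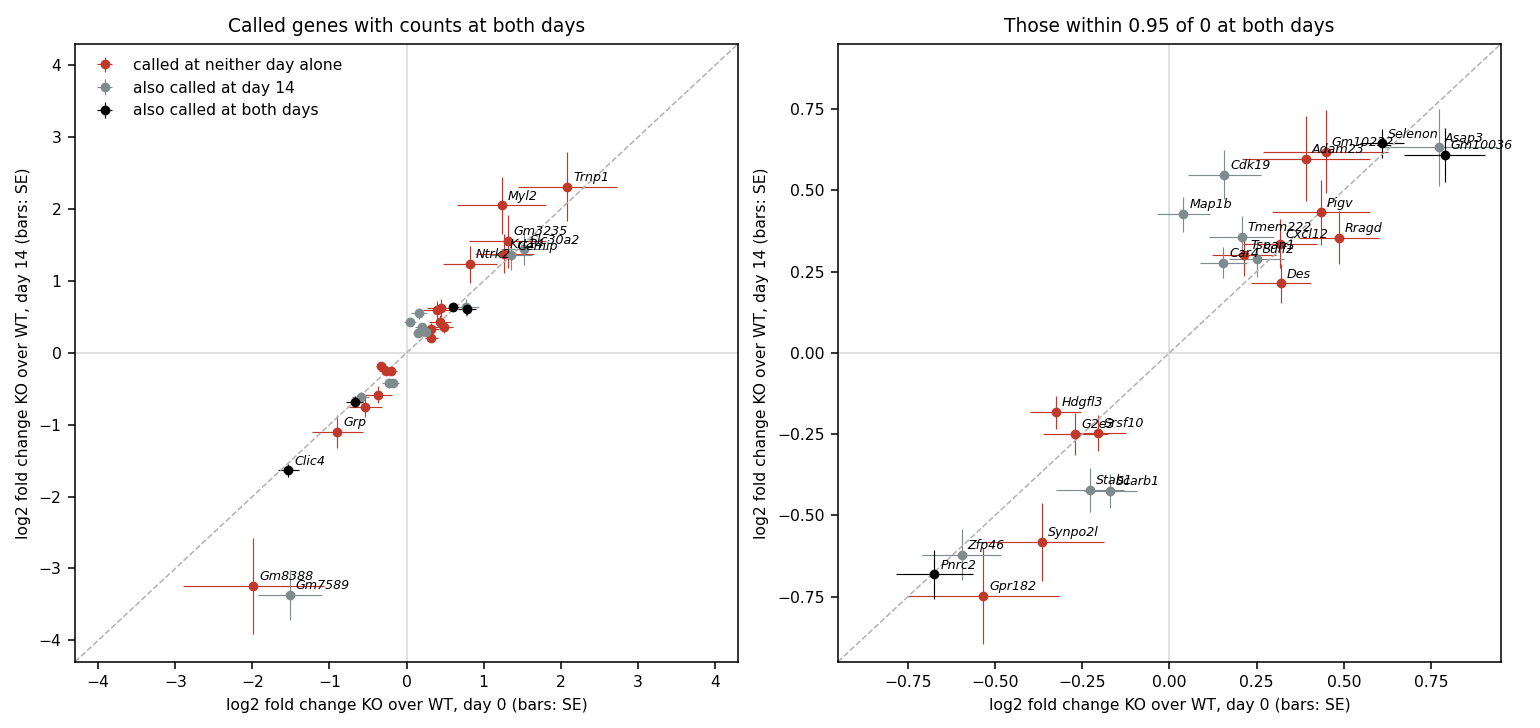
Log2 fold change of KO over WT at day 0 (horizontal) and at day 14 (vertical) for the called genes with counts at both days; bars are SE, the dashed line marks equal values, and the right panel enlarges the centre. The 19 genes called at neither day alone (red) lie in the quadrants where both days have the same sign, between -2.82 (Gm8388) and +2.23 (Trnp1) with both days together.

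The plot of day 0 against day 14 also shows how much wider the day 0 errors are. For 8 of the 19 genes, the KO and WT libraries did not overlap at day 0 and, in the same direction, at day 14, which holds for 49 of all genes (0.251%). Within day 0 alone 15 of the 19 separated, but so did 18.0% of all genes, since only 2 KO libraries had to lie outside 4 WT libraries. Within day 14, 12 of the 19 separated, against 0.977% of all genes. Since the same values chose these genes, those counts are descriptions. Of the 19, 16 are protein coding and 15 had a mean of at least 1 CPM in KO or WT; they lie on 13 chromosomes, 5 of them on chromosome 4 with Clic4.

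Among secreted ligands and their receptors, 4 genes shared a direction at both days: Cxcl12 and Ntrk2 were higher in KO, and Gpr182 and Grp were lower. Cxcl12 (chr6:117168535-117181367, plus strand, mm10) encodes the chemokine that binds CXCR4 and holds leukocytes and progenitors in their niches. It read 485 and 424 CPM in KO at day 0, against 329, 368, 369 and 395 CPM in WT at day 0. The day 14 levels were 402, 404, 376, 344 and 330 CPM in KO, and 261, 292 and 338 CPM (lowest, median, highest) in WT. The groups separated at day 0, while at day 14 the lowest KO library lay below the highest WT library. The shared effect was 1.26-fold (95% interval 1.15 to 1.37; log2 +0.33, SE 0.0598, adjusted p = 0.0229), with nearly the same log2 value at day 0 (+0.32) as at day 14 (+0.34). It missed the threshold when KO day 0 library 1 (adjusted p = 0.0629) or either of KO day 14 libraries 1 (0.0541) and 2 (0.0571) was left out. Of 25 chemokines and niche factors tested, Cxcl12 was the only one called, beside 0.184% of all genes. In this list 8 stood above 0 and 17 below, with a median log2 value of -0.03.

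Gpr182 (chr10:127747276-127751732, minus strand) encodes an atypical receptor of endothelial cells that binds several chemokines, CXCL12 among them. It read 18.9 and 16.97 CPM in KO at day 0, against 23.4, 27.2, 25.4 and 27.9 CPM in WT at day 0. At day 14 its levels were 29.1, 32.1, 27.9, 31.1 and 19.9 CPM in KO, and 32.2, 44.6 and 63.5 CPM in WT (lowest, median, highest). Every KO library lay below every WT library of its day, at day 14 by a narrow margin. The shared effect was 0.625-fold (95% interval 0.524 to 0.745; log2 -0.68, SE 0.121, adjusted p = 0.0249). Leaving out KO day 0 library 2, KO day 14 libraries 1 and 3 and WT day 14 library 3 in turn gave adjusted p of 0.0621, 0.0600, 0.0572 and 0.0509. The gene overlaps Zbtb39 on the other strand, which stood at -0.03 (adjusted p = 0.884); whether counting used strand is not stated. The other CXCL12 receptors did not pass: Cxcr4 stood at -0.19 (adjusted p = 0.530) and Ackr3 at -0.36 (adjusted p = 0.374). Markers of lymphatic endothelium, none of which is Gpr182, gave these values beside it: 8 of 11 were below 0, with a median log2 value of -0.05 (-0.18 at day 0 and 0.00 at day 14). Their sum was 587 to 588 CPM in KO against 674 to 739 CPM in WT at day 0, and 558 to 675 CPM in KO against 684 to 871 CPM in WT at day 14. None of the 11 was called, Flt4 (-0.25, adjusted p = 0.1) and Lyve1 (-0.88, adjusted p = 0.1) being nearest, while Prox1 stood at +0.01 and Ccl21a at -0.04. Their part in the Gpr182 result was not tested, and in whole lung fewer cells of a type and less RNA per cell cannot be told apart.

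Ntrk2 (chr13:58806569-59133970, plus strand) encodes TrkB, the receptor tyrosine kinase for the neurotrophin BDNF. Its level was 19.1 and 23.4 CPM in KO at day 0, against 12.0, 16.3, 11.6 and 8.06 CPM in WT at day 0. At day 14 it was 23.4, 22.5, 12.0, 10.8 and 13.5 CPM in KO, and 5.36, 6.05 and 11.4 CPM (lowest, median, highest) in WT. KO was above WT throughout day 0, and at day 14 the lowest KO library fell just below the highest WT library, WT day 14 library 1. The shared effect was 2.14-fold (95% interval 1.58 to 2.89; log2 +1.10, SE 0.206, adjusted p = 0.0411). Bdnf itself stood at -0.19 (adjusted p = 0.478). Ntrk2 overlaps several non-coding transcripts on either strand, none of which passed the filter on low counts.

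Grp encodes gastrin-releasing peptide, which pulmonary neuroendocrine cells secrete. It read 1.23 and 1.303 CPM in KO at day 0, against 2.69, 2.22, 2.91 and 1.65 CPM in WT at day 0. Day 14 gave 0.951, 0.749, 1.75, 1.48 and 1.43 CPM in KO, and 1.92, 2.89 and 3.41 CPM (lowest, median, highest) in WT. KO lay below WT at both days without overlap, and the shared effect was 0.489-fold (95% interval 0.375 to 0.636; log2 -1.03, SE 0.182, adjusted p = 0.0181). Of the 17 libraries left out in turn, only KO day 14 library 1 ended the call (adjusted p = 0.0541). Of 8 other neuroendocrine genes tested, a list added after the Grp values were seen, 4 stood above 0 and 4 below (median log2 0.00), and 0 were called; none had an unadjusted p under 0.05. Their sum was 18.5 to 19.5 CPM in KO against 14.2 to 17.4 CPM in WT at day 0, and 15.2 to 17.7 CPM in KO against 16.2 to 17.8 CPM in WT at day 14.

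**Figure D2:**
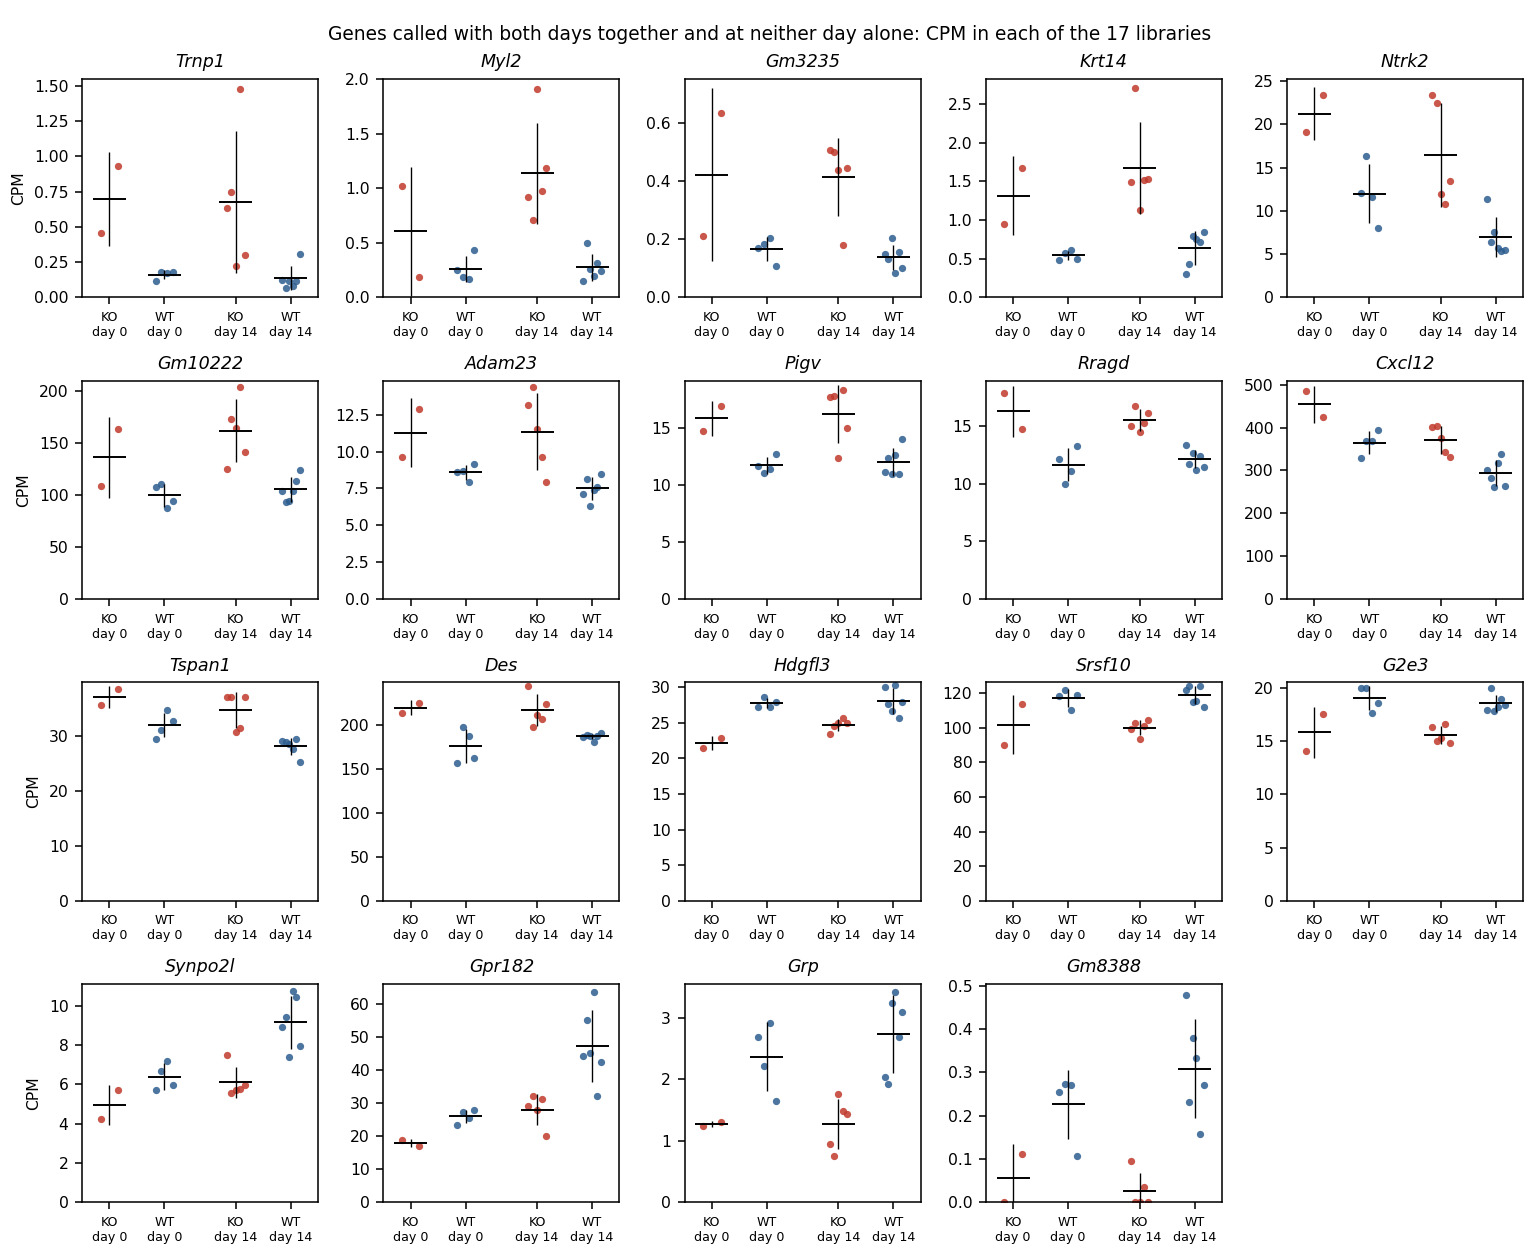
CPM in each of the 17 libraries (points) for the 19 genes called with both days together and at neither day alone, with KO (red) left of WT (blue) within each day; horizontal lines are group means, vertical lines 1 SD, and every axis starts at 0. Genes run from the most positive to the most negative log2 fold change, and Krt14, Rragd, Hdgfl3, Grp and Gpr182 are examples in which KO and WT did not overlap within either day.

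Structural proteins of epithelium and muscle gave 4 of the 19 genes: Krt14, Des and Myl2 were higher in KO, and Synpo2l was lower. Krt14 (chr11:100203162-100207548, minus strand), the type I keratin of basal epithelial cells, had the lowest adjusted p of the 19. It read 0.953 and 1.68 CPM in KO at day 0, against 0.481, 0.578, 0.610 and 0.501 CPM in WT at day 0. By day 14 it stood at 1.49, 2.71, 1.13, 1.51 and 1.53 CPM in KO, and 0.299, 0.730 and 0.849 CPM in WT (lowest, median, highest). Every KO library lay above every WT library of either day, and the shared effect was 2.54-fold (95% interval 1.85 to 3.48; log2 +1.34, SE 0.217, adjusted p = 0.00930). These are low levels, resting on 293 counts in the 7 KO libraries together and 188 in the 10 WT libraries. The call held without each library in turn. Of 6 other genes of basal cells and keratinocytes, a list added after the Krt14 values were seen, 4 stood above 0 and 2 below, and 0 were called; Trp63, the transcription factor of basal cells, stood at +0.43 (adjusted p = 0.459) and Krt5, the partner keratin, at +0.27 (adjusted p = 0.897). Their sums overlapped between genotypes at each day. Krt14 is also in the list of epithelial and mammary tumour markers. Of its 17 genes tested, 9 stood above 0 and 8 below (median log2 +0.02). Krt14 was called higher there and Dynap lower, beside 0.184% of all genes called.

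Des (chr1:75360329-75368579, plus strand) encodes desmin, the intermediate filament of muscle cells and pericytes. It read 214 and 226 CPM in KO at day 0, against 157, 197, 187 and 162 CPM in WT at day 0. At day 14 it read 244, 197, 212, 206 and 224 CPM in KO, and 181, 187 and 191 CPM (lowest, median, highest) in WT. KO was above WT at both days without overlap, by 1.19-fold (95% interval 1.11 to 1.28; log2 +0.25, SE 0.0494, adjusted p = 0.0412). Des was the 1 called gene of 18 markers of smooth muscle and pericytes, beside 0.184% of all genes. Of these markers, 12 stood above 0, 9 had an unadjusted p under 0.05 (10.8% of all genes did), and the median log2 value was +0.15. Actg2 (+0.39) and Acta2 (+0.29), the smooth muscle actins, and Lmod1 (+0.32), an actin nucleator of smooth muscle, had adjusted p between 0.114 and 0.123. The sum of the 18 markers, Des included, was 2056 to 2213 CPM in KO against 1793 to 2053 CPM in WT at day 0, and 1824 to 2155 CPM in KO against 1815 to 2023 CPM in WT at day 14. Their part in the Des result was not tested.

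Myl2 and Synpo2l, both genes of striated muscle, differed in direction. Synpo2l (chr14:20658946-20668354, minus strand), which encodes a Z-disc protein of heart and skeletal muscle, was lower in KO. It read 4.24 and 5.70 CPM in KO at day 0, against 5.72, 6.67, 7.21 and 5.98 CPM in WT at day 0. The day 14 levels were 7.52, 5.58, 5.70, 5.77 and 5.98 CPM in KO, and 7.42, 9.17 and 10.8 CPM (lowest, median, highest) in WT. The groups lay just apart at day 0 and overlapped at day 14 through KO day 14 library 1, and the shared effect was 0.701-fold (95% interval 0.607 to 0.811; log2 -0.51, SE 0.0999, adjusted p = 0.0386). Beside it, 15 of 18 markers of heart and pulmonary vein muscle stood below 0, with a median log2 value of -0.23 and 0 called. Tnnt2 (-0.47, adjusted p = 0.133) and Myl7 (-0.43, adjusted p = 0.196), sarcomere genes of cardiac muscle, were nearest. These markers summed to 1286 to 1761 CPM in KO against 1513 to 1808 CPM in WT at day 0, and to 1259 to 1892 CPM in KO against 1565 to 2669 CPM in WT at day 14.

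Myl2 (chr5:122100951-122113472, plus strand), the myosin regulatory light chain of ventricle and slow skeletal muscle, was higher in KO, but it was read from few counts, 192 in all of KO and 83 in all of WT. Its mean lay under 1 CPM in both genotypes, which is under the minimum set for naming a gene, and it was chosen after its values were seen. It read 1.02 and 0.186 CPM in KO at day 0, against 0.255, 0.183, 0.169 and 0.430 CPM in WT at day 0. At day 14 its levels were 0.920, 0.708, 1.91, 0.973 and 1.19 CPM in KO, and 0.150, 0.250 and 0.498 CPM in WT (lowest, median, highest). The genotypes separated at day 14 and not at day 0, and the shared effect was 3.48-fold (95% interval 2.15 to 5.61; log2 +1.80, SE 0.330, adjusted p = 0.0245). Leaving out KO day 0 library 1 (adjusted p = 0.0904), KO day 14 library 3 (0.0572) and WT day 14 libraries 1, 3 and 4 (0.0530, 0.0571 and 0.0662) each ended the call. Of 9 other genes of ventricle and skeletal muscle, a list added after these values were seen, 6 stood above 0 and 3 below, and 0 were called; their sum was 174 to 184 CPM in KO against 136 to 173 CPM in WT at day 0, and 154 to 203 CPM in KO against 154 to 191 CPM in WT at day 14. The part of either set of muscle markers in the results of Myl2 and Synpo2l was not tested. Myl2 overlaps Ccdc63 on the other strand (+1.09, adjusted p = 0.430).

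The remaining 5 coding genes outside the Clic4 neighbourhood were Rragd, Tspan1, Adam23, Hdgfl3 and G2e3. Rragd (chr4:32983037-33022180, plus strand, 102 Mb from Clic4) encodes RagD, a GTPase that helps recruit mTORC1 to lysosomes when amino acids are plentiful. It read 17.9 and 14.7 CPM in KO at day 0, against 12.1, 9.95, 11.1 and 13.3 CPM in WT at day 0. Day 14 gave 14.97, 16.8, 14.5, 15.2 and 16.1 CPM in KO, and 11.2, 12.0 and 13.4 CPM (lowest, median, highest) in WT. Every KO library was above every WT library of either day, by 1.32-fold (95% interval 1.20 to 1.45; log2 +0.40, SE 0.0656, adjusted p = 0.0106), and the call held without each library in turn. Tspan1, a tetraspanin of epithelial cells that lies 19.0 Mb from Clic4, rose 1.21-fold (log2 +0.27, SE 0.0524, adjusted p = 0.0324), and its KO and WT libraries separated within each day. Adam23, an ADAM family member without protease activity that binds integrins, rose 1.44-fold (log2 +0.53, SE 0.106, adjusted p = 0.0440); it separated at day 0 and overlapped at day 14.

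Hdgfl3 and G2e3 fell by small amounts. Hdgfl3 (chr7:81881251-81934473, minus strand), of the family of hepatoma-derived growth factor, read 21.5 and 22.9 CPM in KO at day 0, against 27.3, 28.7, 27.3 and 27.9 CPM in WT at day 0. By day 14 it stood at 23.4, 24.5, 25.0, 25.6 and 25.0 CPM in KO, and 25.7, 27.8 and 30.3 CPM (lowest, median, highest) in WT. All KO libraries lay below all WT libraries, and the shared effect was 0.853-fold (95% interval 0.8004 to 0.909; log2 -0.23, SE 0.0439, adjusted p = 0.0324). Hdgfl3 overlaps Tm6sf1 on the other strand, which stood at -0.01 (adjusted p = 0.977). G2e3, a ubiquitin ligase gene, also had all KO libraries below all WT libraries (0.837-fold, 95% interval 0.777 to 0.902; log2 -0.26, SE 0.0517, adjusted p = 0.0468). Both lie among the smallest effects called: of the 19 genes, 8 had an absolute log2 fold change under 0.5.

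The neighbourhood of Clic4 on chromosome 4 held 3 of the 19 genes: Trnp1 and Pigv were higher in KO, and Srsf10 was lower. Trnp1 (chr4:133491100-133498550, minus strand, 1.72 Mb from Clic4) encodes a nuclear protein known from the expansion of neural progenitors. It read 0.459 and 0.931 CPM in KO at day 0, against 0.113, 0.183, 0.169 and 0.179 CPM in WT at day 0. At day 14 it read 0.634, 0.749, 0.219, 1.48 and 0.297 CPM in KO, and 0.0663, 0.118 and 0.306 CPM (lowest, median, highest) in WT. The groups separated at day 0, and at day 14 a pair of KO libraries lay below the highest WT library. The shared effect, 4.69-fold (95% interval 2.73 to 8.06; log2 +2.23, SE 0.374, adjusted p = 0.0117), rests on 130 counts in all of KO and 45 in all of WT, and the call held without each library in turn.

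Pigv (chr4:133660387-133672647, minus strand, 1.54 Mb from Clic4), a mannosyltransferase of GPI anchor synthesis, read 14.7 and 16.9 CPM in KO at day 0, against 11.7, 11.02, 11.4 and 12.7 CPM in WT at day 0. The day 14 levels were 17.7, 17.8, 12.4, 18.3 and 14.98 CPM in KO, and 10.9, 11.8 and 14.1 CPM (lowest, median, highest) in WT. Only KO day 14 library 3 lay within the WT range, and the shared effect was 1.35-fold (95% interval 1.20 to 1.51; log2 +0.43, SE 0.0787, adjusted p = 0.0229). The call ended when KO day 0 library 2 (adjusted p = 0.0685) or either of KO day 14 libraries 1 (0.0566) and 2 (0.0571) was left out. Srsf10 (chr4:135855747-135869908, plus strand, 0.583 Mb from Clic4), a splicing regulator of the SR family, read 89.8 and 114 CPM in KO at day 0, against 118, 122, 110.0 and 119 CPM in WT at day 0. At day 14 its levels were 99.1, 103, 93.3, 101 and 105 CPM in KO, and 112, 119 and 124 CPM (lowest, median, highest) in WT. The groups separated at day 14 only, and the shared effect was 0.851-fold (95% interval 0.798 to 0.908; log2 -0.23, SE 0.0446, adjusted p = 0.0324). Pnrc2, whose 3' end faces that of Srsf10, fell to 0.625-fold and was called at each day alone.

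With these genes, 10 of the 309 genes tested within 10 Mb of Clic4 were called (3.24%), all of them within 2 Mb, against 24 of 18401 genes on other chromosomes (0.130%). Within 1 Mb 6 of 50 genes were called, and between 1 and 2 Mb 4 of 35. With both days together none was called between 2 and 10 Mb, though Rsc1a1, 6.41 Mb away, was called at day 0. Of the 91 genes between 2 and 5 Mb, 29.7% had an unadjusted p under 0.05, against 10.5% on other chromosomes. Of the 10, Selenon, Slc30a2, Asap3, Trnp1, Pigv and Tmem222 were higher in KO, and Clic4, Pnrc2, Zfp46 and Srsf10 were lower. Whether the differences near Clic4 follow from its loss or from their position beside the targeted locus was not tested. The remaining 847 genes of chromosome 4 held 2 calls (0.236%), Tspan1 and Rragd.

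**Figure D3:**
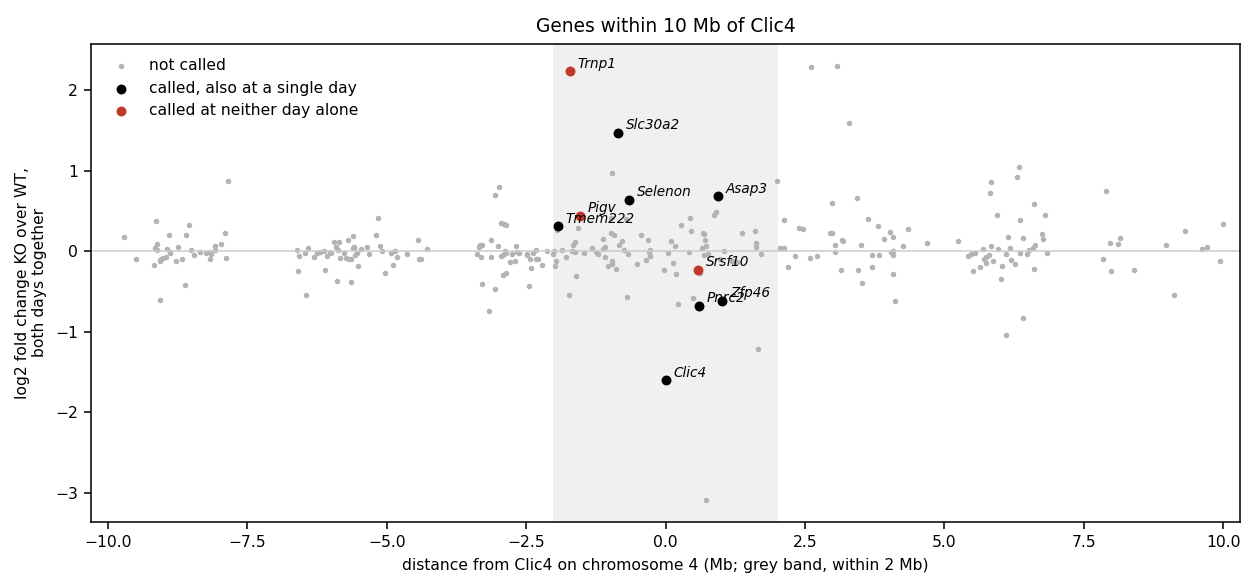
Log2 fold change of KO over WT with both days together against distance from Clic4 for the genes tested within 10 Mb on chromosome 4; distance is to the nearer end, positive toward higher coordinates. Called genes (black, also called at a single day; red, at neither day alone) all lie in the grey band within 2 Mb and point both ways, between -1.60 (Clic4) and +2.23 (Trnp1).

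The last 3 of the 19 genes are non-coding and were chosen for naming after their values were seen. Gm8388 (chr3:63173106-63173861, minus strand), a processed pseudogene, is an intronless copy of Clic4 itself. It aligned to the Clic4 coding sequence over 755 bases with 32 differences, and the longest identical run was 118 bases. Below, 120 bases of both are shown from base 64 to base 183, counted from the Clic4 start codon and from the first base of the Gm8388 transcript (GENCODE M21), because they show how alike the 2 transcripts are. Capitals mark the 4 bases that differ.
Clic4: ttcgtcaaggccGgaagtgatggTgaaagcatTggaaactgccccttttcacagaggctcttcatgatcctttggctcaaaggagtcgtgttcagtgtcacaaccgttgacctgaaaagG
Gm8388: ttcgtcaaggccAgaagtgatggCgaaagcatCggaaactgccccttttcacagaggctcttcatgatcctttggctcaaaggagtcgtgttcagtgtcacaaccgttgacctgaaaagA
Gm8388 read 0 and 0.112 CPM in KO at day 0, against 0.255, 0.274, 0.271 and 0.107 CPM in WT at day 0. Day 14 gave 0.0951, 0, 0, 0.0360 and 0 CPM in KO, and 0.158, 0.302 and 0.479 CPM (lowest, median, highest) in WT. In all it had 7 counts in KO and 89 counts in WT, and its fitted value of -2.82 on the log2 scale (SE 0.539, adjusted p = 0.0324) depends on these few counts. Reads of Clic4 assigned to its copy cannot be told apart from transcripts of Gm8388, so its change is uncertain.

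Gm10222 (chr1:24612407-24612700, minus strand), a nuclear copy of mitochondrial sequence, is identical to mt-Nd4l over its 294 bases. It read 109 and 164 CPM in KO at day 0, against 87.3 to 111 CPM in WT at day 0, and 126 to 204 CPM in KO at day 14, against 93.4 to 124 CPM in WT. The groups separated at day 14 and not at day 0, and the shared effect was 1.48-fold (log2 +0.56, SE 0.102, adjusted p = 0.0307), while mt-Nd4l stood at -0.02 (adjusted p = 0.976). How reads were split between identical sequences is uncertain. Gm3235 (chr8:91621448-91629729, minus strand) lies inside Fto on the other strand. It read 0.212 and 0.633 CPM in KO at day 0 against 0.107 to 0.203 CPM in WT, and 0.180 to 0.507 CPM in KO at day 14 against 0.0833 to 0.205 CPM in WT (log2 +1.47, SE 0.291, adjusted p = 0.0411); Fto stood at +0.01 (adjusted p = 0.944).

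Among the 13 genes that were called with both days and at day 14 alone, Cemip, a hyaluronan-degrading protein, rose 2.56-fold, Sulf2, an extracellular sulfatase that trims heparan sulfate, rose 1.21-fold, and Stab1, a scavenger receptor for hyaluronan on sinusoidal endothelium and macrophages, fell to 0.781-fold. Of 26 genes listed for hyaluronan and heparan sulfate, these 3 were called, 2 higher and 1 lower, against 0.184% of all genes. The list was chosen with earlier results of these data known and was not tested, so this count is only a description. In it 16 genes stood above 0 and 10 below, with a median log2 value of +0.03. Cemip had nearly the same log2 value at day 0 (+1.36, SE 0.264, adjusted p = 0.140) as at day 14 (+1.36, SE 0.197, adjusted p = 0.00324), and with both days its adjusted p was 0.000118. Slc30a2, a zinc transporter, rose 2.77-fold, and Asap3, an Arf GTPase-activating protein, rose 1.601-fold. Zfp46, a zinc finger gene, fell to 0.654-fold and Scarb1, the HDL receptor, to 0.790-fold. Cdk19, a kinase of the Mediator complex, rose 1.34-fold, Tmem222, a membrane protein, 1.24-fold, Map1b, a microtubule-associated protein, 1.23-fold and Car4, a carbonic anhydrase of lung capillaries, 1.18-fold. Map1b stood at +0.04 (SE 0.0764) at day 0 and +0.43 (SE 0.0533) at day 14, and its additive adjusted p was 0.0404. Cdk19 stood at +0.16 and +0.55 at these days, Scarb1 at -0.17 and -0.43, and the pseudogene Gm7589 at -1.51 and -3.37. These 4 were the called genes with an unadjusted p under 0.05 for a difference between days (0.000647, 0.00799, 0.0123 and 0.00386). None was called for that difference (adjusted p = 0.753 for Map1b and 0.988 for the others). Their folds over both days join unlike values of the days. Dynap had 2 counts in KO, both at day 14, against 79 counts in WT and none in any day 0 library, so its value of -4.34 (adjusted p = 0.0181) says nothing about day 0. It missed the threshold without KO day 14 library 1 (0.0595). The pseudogenes Gm10036 (higher) and Gm7589 (lower) are copies of Rpl11, 99.3% and 97.9% identical over 534 bases; Rpl11 stood at -0.04 (adjusted p = 0.725), and how its reads were split between copies is uncertain.

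A call at 1 day was not kept by the additive model for 5 genes. Hipk2, a kinase upstream of p53, stood at -0.46 at day 0 and +0.93 at day 14 (adjusted p = 0.00324), and with both days at +0.52 (adjusted p = 0.371). Tmod2, a tropomodulin that caps actin filaments, and Dkk2, a secreted Wnt antagonist, stood at 0.00 and +0.08 at day 0 and at +0.37 and +0.999 at day 14 (adjusted p = 0.00324 and 0.0461). Rhox5, a homeobox gene, had 7 counts in KO and 6 in WT at day 0, and 20 counts in KO and 256 in WT at day 14 (adjusted p = 0.0454). Rsc1a1, 6.41 Mb from Clic4, had 0 counts in KO and 1176 in WT at day 0 (adjusted p = 0.0102) but 820 in KO and 1072 in WT at day 14. Whether that 0 comes from the gene or from how reads were assigned was not tested. A test of whether the effect differs by day called none of the 5 (adjusted p = 0.0566 for Rsc1a1, 0.121 for Hipk2 and 0.862 or more for the others).

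Lists of cell-type and pathway genes, which were not tested as sets, place the 19 genes beside the rest of the lung. Of 45 lists, chosen with earlier results of these data known, 10 held at least 1 called gene. Over all genes tested 0.184% were called, and the counts per list are descriptions only. The 20 genes of NK and cytotoxic cells tested all stood below 0 (median log2 -0.71; -1.05 at day 0 and -0.60 at day 14) and 17 had an unadjusted p under 0.05, yet 0 were called. The nearest were S1pr5, a receptor for lymphocyte egress (-0.60, adjusted p = 0.114), Klri2, an NK receptor (-1.06, adjusted p = 0.114) and Eomes, a transcription factor of NK cells (-1.08, adjusted p = 0.133). Their sum was 86.5 to 157 CPM in KO against 194 to 372 CPM in WT at day 0, without overlap, and 112 to 169 CPM in KO against 132 to 403 CPM in WT at day 14, with overlap. Of 27 genes of vascular endothelium, Car4 was called higher while 23 stood below 0 (median -0.09). Among these were Flt1, a VEGF receptor (-0.19, adjusted p = 0.1), and Gpihbp1, a capillary lipase anchor (-0.39, adjusted p = 0.123). Car4 was also the 1 called gene of 18 listed for alveolar macrophages. Of those, 14 stood above 0 and 4 below (median +0.08, with +0.22 at day 0 and +0.01 at day 14).

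Of 17 ciliated cell genes, 14 stood above 0 (median +0.19), 10 had an unadjusted p under 0.05 and 0 were called; the dynein heavy chain gene Dnah9 was nearest (+0.27, adjusted p = 0.0756). Mesothelial genes stood above 0 in 11 of 12 cases (median +0.22, 0 called), with Muc16 nearest (+0.47, adjusted p = 0.123). Fat genes stood above 0 in 17 of 18 cases, with a median of +0.26 over both days, +0.82 at day 0 and +0.03 at day 14; without KO day 0 library 2 the median over both days was +0.05. Type I interferon response genes (24 of 25 below 0; median -0.94 at day 0 and -0.03 at day 14), B and plasma cell genes (19 of 21; -0.82 and +0.03) and proliferation genes (27 of 28; -0.53 and 0.00) held no called gene. Leaving out 1 library at a time moved the interferon median of -0.30 between -1.11 (without KO day 14 library 2) and +0.28 (without WT day 14 library 5), a change of sign. The B and plasma cell median of -0.23 became -0.08 and the proliferation median of -0.14 became -0.06 without KO day 0 library 2. Whether any of these lists differed between the days was not tested. Selenon was the 1 called gene of 22 selenoproteins, whose median was +0.06.

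**Figure D4:**
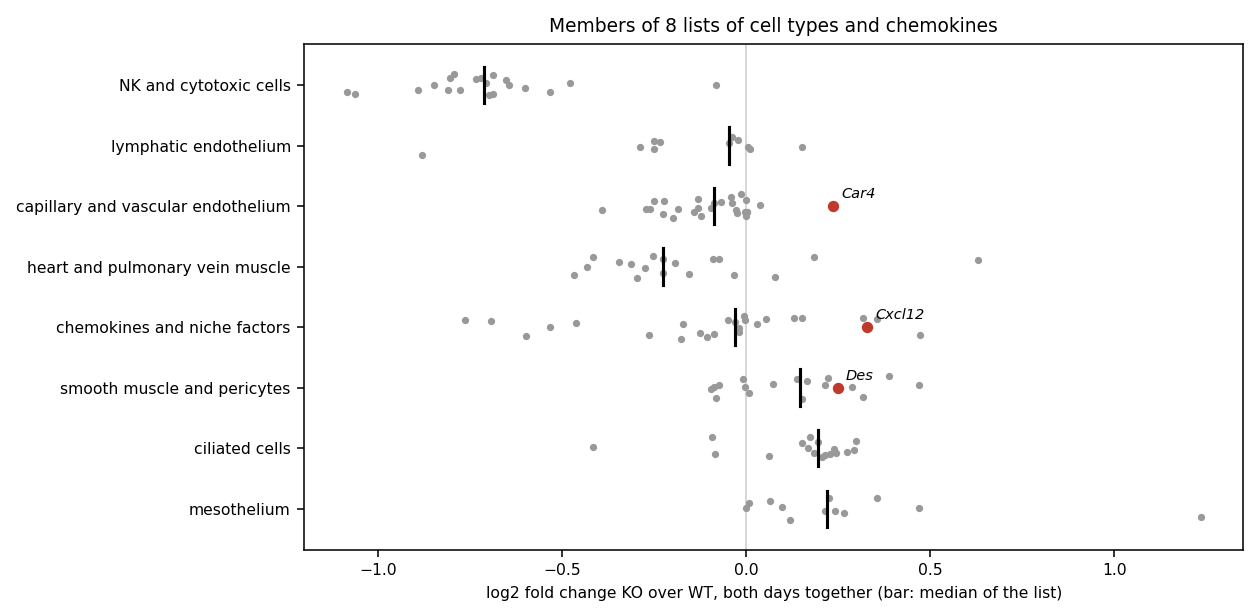
Log2 fold change of KO over WT with both days together for the members of 8 lists (grey, not called; red, called), with the median of each list as a bar. NK and cytotoxic genes all lie below 0 (median -0.71) and none is called, while Cxcl12, Des and Car4 are the called members of their lists.

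Because an adjusted p of 0.05 divides these genes from the rest, single libraries moved many of them across it. Just inside lay Des, Adam23 (0.0440) and G2e3 (0.0468), and just outside Itgbl1 (0.0525) and Zdhhc18 (0.0558). Krt14, Rragd and Trnp1 kept their call without each of the 17 libraries in turn. Grp was lost in 1 of these fits, Cxcl12 and Pigv in 3, Gpr182 in 4 and Myl2 in 5. The other 11 were lost in 9 to 15 fits, with the highest adjusted p between 0.0751 (Gm8388) and 0.122 (Gm3235). Gm3235 remained called with KO day 0 library 1 left out, and with KO day 14 library 4 left out. For G2e3 the same held for KO day 0 library 2 and KO day 14 library 4, and for Des it held for KO day 14 libraries 2 and 4 and WT day 0 library 2. Adam23 remained called with KO day 0 library 1, KO day 14 libraries 4 and 5 and WT day 14 library 6 each left out. Srsf10 did so for KO day 0 library 2, KO day 14 library 5, WT day 0 library 3 and WT day 14 library 6. Ntrk2 did so for KO day 0 library 1, KO day 14 libraries 3 and 4, WT day 0 library 2 and WT day 14 library 1. For Hdgfl3 the libraries were KO day 14 libraries 4 and 5 and WT day 14 libraries 3, 5 and 6. For Synpo2l they were KO day 0 library 2, KO day 14 library 1, WT day 0 libraries 1 and 4 and WT day 14 libraries 3 and 6. Gm8388, which 2 of the fits did not test, remained called for KO day 0 library 2, KO day 14 library 1, WT day 0 library 4 and WT day 14 libraries 2, 5 and 6. For Tspan1 they were KO day 0 library 1, KO day 14 libraries 3 and 4, WT day 0 library 3 and WT day 14 libraries 1, 2 and 5. Gm10222 remained called for KO day 0 library 1, KO day 14 libraries 1, 4 and 5, WT day 0 libraries 1 and 2 and WT day 14 libraries 5 and 6. Of the 17 genes also called at a day, Map1b was lost in 12 of these fits (adjusted p up to 0.0894) and Dynap in 1; Map1b remained called for KO day 0 libraries 1 and 2, KO day 14 library 4 and WT day 0 libraries 3 and 4. No gene changed direction in any fit.

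**Figure D5:**
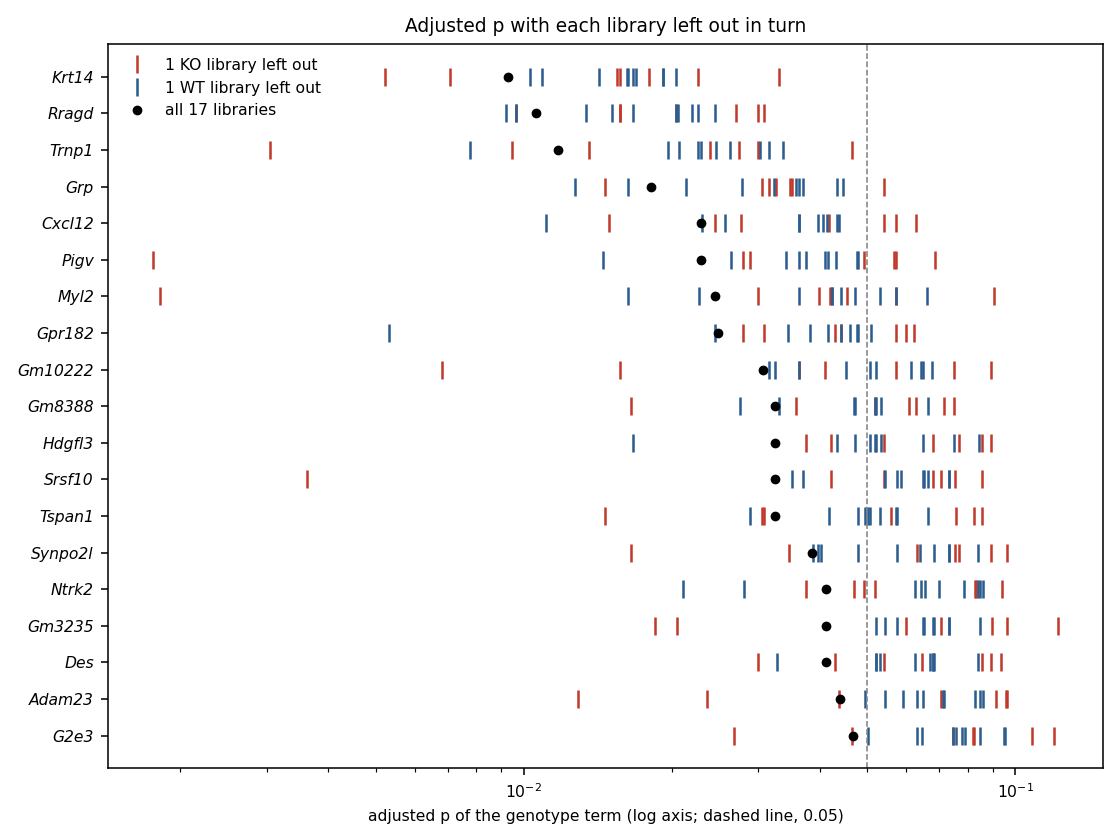
Adjusted p of the genotype term (log axis) for the 19 genes with all 17 libraries (black points) and with 1 KO (red) or 1 WT (blue) library left out (ticks). Krt14, Rragd and Trnp1 stay left of the dashed line at 0.05 in every fit, while G2e3 and Gm3235 cross it in 15.

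Calls also depended on the tool. DESeq2 called all 17 of the 19 genes for which it gave an adjusted p, but only 2 of them were called at neither day alone in DESeq2, the other 15 being called at 1 day or both. By limma-voom 15 of 19 were called, and all 15 at neither day alone; it lost Myl2 (0.0540), Gm3235 (0.0797), Adam23 (0.0530) and G2e3 (0.0534). On the authors' FPKM values, as log2(FPKM + 1) with limma, 17 of the 19 passed the filter and 1 was called, Cxcl12 (adjusted p = 0.0297). An unweighted mean of both days, in which the 2 KO libraries of day 0 weigh as much as the 5 of day 14, called 4 of the 19: Krt14, Rragd, Trnp1 and Hdgfl3.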

How the data were processed

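Mouse lung RNA was sequenced for 17 libraries. The deposited files of the authors give expected counts per gene and library, named as RSEM output per the submitters' processing notes, which list STAR 2.5.3, RSEM 1.3.0, limma 3.38.3 and mm10; a joint table of FPKM by the authors was deposited too. The strand setting and read length are not given in the sources used here. The labels put 2 KO and 4 WT libraries at day 0 and 5 KO and 6 WT at day 14.

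Expected counts were rounded, filtered with filterByExpr by the 4 groups (19557 of 54146 genes kept) and scaled with TMM in edgeR 4.0.16 (R 4.3.3). A robust quasi-likelihood fit with genotype and day as terms gave the genotype effect, and a 4-group fit gave each day and the difference between days. Tests were two-sided, Benjamini-Hochberg adjustment ran over all genes, and a gene was called under 0.05. Intervals are 95% for the fitted genotype effect. They use an SE derived from the F statistic, which rests on the spread between libraries, and are approximate. Alternatives were DESeq2 1.42.0, limma-voom and limma on FPKM (limma 3.58.1), other filters and scaling, and each library left out. The code was tested on simulated data.

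Named were the CLIC genes and Selenon, genes called at neither day alone with a mean of at least 1 CPM, called genes within 10 Mb of Clic4, up to 6 each way that a single day also called, and up to 4 called members per list; predicted genes were left out. The members and the 45 lists were chosen with earlier results of these data known, and 3 further lists after seeing values. Coordinates and transcripts are GENCODE M21 on GRCm38 (mm10); Gm8388 was aligned with Biopython 1.88.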

Additional observations from a re-analysis of the deposited data

Results flagged for a closer look

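Within groups of 4 to 6 libraries, a single library stood apart from the others (Dixon's criterion at 95%) in 7 of 108 groups of the called genes; chance flags about 1 in 20. Krt14 was 2.71 CPM in KO day 14 library 2, against 1.13 to 1.53 CPM in the other KO libraries of that day. Synpo2l was 7.52 CPM in KO day 14 library 1, above 5.58 to 5.98 CPM in the others, and Gm3235 was 0.180 CPM in KO day 14 library 4, below 0.438 to 0.507 CPM. Among WT libraries, Trnp1 was 0.306 CPM in WT day 14 library 6, against 0.0663 to 0.120 CPM in the others. Ntrk2 was 11.4 CPM in WT day 14 library 1, above 5.36 to 7.60 CPM. Car4 was 174 CPM in WT day 14 library 3, below 190 to 197 CPM, and Gm8388 was 0.107 CPM in WT day 0 library 4, below 0.255 to 0.274 CPM.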

How the results depend on the processing

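DESeq2 called 218 genes with both days together, 26 at day 0, 109 at day 14, 9 for the difference between days and 145 at neither day alone. With limma on log2(FPKM + 1), and on log2(FPKM + 0.1), the counts were 13 and 13 with both days, 4 and 3 for the difference, and 4 and 4 at neither day alone; without a filter they were 16, 12 and 7, and 17 at day 0. An unweighted mean of the days called 20 genes, and a minimum of 1 CPM gave 1 for the difference. Each day fitted alone gave 14 at day 0 and 17 at day 14, and 18 of the 19 main genes were again called at neither day. Re-adjusting the same p-values without genes within 10 Mb of Clic4 called 19 genes of any class. Of the 16 neither-day genes tested there, 10 stayed called. Those lost were Synpo2l (adjusted p = 0.0570), Ntrk2, Des and Gm3235 (0.0574 each), Adam23 (0.0606) and G2e3 (0.0637). With 1 library left out, the counts were 23 to 41 with both days, 2 to 7 at day 0, 15 to 27 at day 14, 0 to 1 for the difference and 8 to 27 at neither day alone. Fits without a library hold fewer samples; the causes of the other shifts were not tested. Of 976 settings of single genes, 705 kept their call, 271 lost it and 0 reversed. No paired analysis was possible because the labels give no replicate numbers shared by the groups. With 2 KO libraries, day 0 had the widest errors, and genes under 1 CPM rest on few counts.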
